A study of Mus musculus with 12 samples.

Results

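The genes described here are 10 genes of iron uptake, storage and export, measured by RNA-seq in BV2 cells, an immortalized mouse microglial line. They were taken by name from a count table of 21834 genes. Tfrc, Slc11a2 and Slc11a1 serve uptake, Fth1 and Ftl1 serve storage, and Ncoa4 serves the release of stored iron. Slc40a1 serves export, and Aco1, Ireb2 and Fbxl5 belong to the system that senses iron. One line carried a control shRNA (shCtrl), and the other (shAnxa2) carried an shRNA against Anxa2, which encodes a membrane-binding annexin. Each line was left untreated (CTRL) or exposed to oxygen-glucose deprivation followed by reoxygenation (OGDR in the group names, OGD/R in the text), with 3 libraries in each of the 4 groups. According to the labels, OGD lasted 4 h in DMEM without glucose under 1% O2 and 5% CO2, and reoxygenation in normal medium lasted 12 h, whereas the study's methods give a longer reoxygenation. All 4 groups were stable, drug-selected lentiviral lines, with 1 shRNA against Anxa2, so an effect of Anxa2 loss cannot be told apart from an effect of this shRNA or of this line. A transcript level is not a protein level, and no protein was measured in these files. Lower RNA per cell and fewer cells expressing a gene cannot be told apart either.

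Iron reaches most cells bound to transferrin, which is taken up by the transferrin receptor. It leaves the endosome through the transporter DMT1 (encoded by Slc11a2), and what is not used is stored in shells of ferritin heavy and light chains or exported by ferroportin. Iron regulatory proteins bind a hairpin in several of these mRNAs, the iron-responsive element (IRE), when iron is scarce. Binding in the 5′ UTR blocks translation, as for ferritin and ferroportin, whereas binding in the 3′ UTR protects the transferrin receptor mRNA from decay. Microglia, like other macrophages, take up iron from their surroundings and from ingested cells.

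Because this hairpin joins uptake, storage and export genes, its sequence was searched in GENCODE M21 protein-coding transcripts of mouse (GRCm38) as an unpaired C, any 5 bases, the loop CAGTGN and 5 bases able to pair with those before the loop. Of the 10 genes, 4 held it, against 1.34% of 21866 protein-coding genes (294 genes), with matches anywhere in a transcript counted. These 4 are the genes of ferritin, ferroportin and the transferrin receptor, named above for this element, so the share is no test of enrichment. The 29-base windows that hold it are printed 5′ to 3′ on the strand of the gene, with the loop in capitals. Those of the ferritin chains and ferroportin lie in 5′ UTRs, at chr19:9982732-9982760 (plus strand, Fth1), chr7:45459779-45459807 (minus strand, Ftl1) and chr1:45925465-45925493 (minus strand, Slc40a1).
Fth1: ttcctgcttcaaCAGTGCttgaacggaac
Ftl1: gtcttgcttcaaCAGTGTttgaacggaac
Slc40a1: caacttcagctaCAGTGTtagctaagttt
The windows of both ferritin chains differ at 3 of 29 bases. The transferrin receptor mRNA held 4 such hairpins, all in its 3′ UTR on the plus strand of chromosome 16, at 32631219-32631247, 32631598-32631626, 32631663-32631691 and 32631710-32631738, in this order.
Tfrc site a: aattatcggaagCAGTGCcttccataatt
Tfrc site b: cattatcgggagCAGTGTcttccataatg
Tfrc site c: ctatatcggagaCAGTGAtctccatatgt
Tfrc site d: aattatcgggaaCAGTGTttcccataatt
The other 6 genes held no match, which says only that these letters are not in their annotated coding transcripts. The same search gave no match in Epas1, listed below among genes with an IRE, so it can miss such elements. No match thus does not show that a gene, such as Slc11a2, lacks an IRE. The hairpins lay in 4 of 5 annotated coding transcripts of Fth1, 1 of 2 of Ftl1, 1 of 4 of Slc40a1 and 1 of 3 of Tfrc, and the counts per gene do not separate transcripts with and without it.

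Total counts per library ranged from 19521877 to 27288843. Levels are given as CPM, the share of a library's counts scaled by TMM factors and set to a common library size, and tests were edgeR quasi-likelihood tests with Benjamini-Hochberg adjustment over the 11626 genes that passed a filter of 0.5 CPM in at least 3 libraries. Groups follow the sample titles, because the label field for cell type calls all OGD/R libraries Anxa2 knockdown and all untreated ones WT. Anxa2 itself bore out the line given in the titles, with 165 to 295 CPM in the 6 shCtrl libraries and 18.2 to 44.4 CPM in the 6 shAnxa2 libraries, but the knockdown does not check the treatment. With OGD/R as labelled, Anxa2 went from a mean of 172 to 279 CPM in shCtrl cells and from 40.4 to 19.6 CPM in shAnxa2 cells. In 44.4% of all genes tested, the OGD/R changes of both lines passed the test in opposite directions. One shAnxa2-OGDR library (replicate 1) stood apart by 66525 counts of Lars2, against at most 2670 in any other. All 12 microglia and macrophage markers examined passed the filter, although P2ry12, Aif1 and Cx3cr1 stayed under 6 CPM in every group mean. Markers of other cell types summed to at most 6.30 CPM per list, and Snap25, Syt1, Aqp4, Mog, Hbb-bs and Hbb-bt were at 0 in all libraries. The summed endothelial markers were 1.58 to 1.72 CPM in shCtrl-CTRL, 0.458 to 0.978 in shCtrl-OGDR, 0.587 to 1.23 in shAnxa2-CTRL and 1.67 to 2.09 in shAnxa2-OGDR. Tfrc shares this order, which came from Cdh5 (means of 1.21, 0.211, 0.504 and 1.63 CPM in these groups, 2 to 39 counts). Pecam1 went the other way (0.293, 0.455, 0.439 and 0.277 CPM, 3 to 14 counts), and Cldn5 had 0 to 4 counts. The summed oligodendrocyte markers, mostly Mbp, were 4.37 to 5.42, 5.63 to 6.30, 5.39 to 6.11 and 3.97 to 4.17 CPM in the same groups, an order that Slc40a1 shares. Their part in the results was not tested.

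Gene positions below are those of the count table (mm39 is the build in the submitters' processing notes), while those of the hairpins above are in GRCm38. All 10 genes passed the filter, with at least 76 counts in every library. Per kilobase of exon, they spread over much of the range of expressed genes in untreated shCtrl cells. Fth1 reached 2752 ± 126 CPM per kb (SD, n = 3), rank 5 of 11586 genes with a length. Ftl1 followed at 881 ± 77.5 CPM per kb, rank 37. Both ferritin chains thus stood far above the other iron genes. Slc11a1 (160 CPM per kb) and Tfrc (135 CPM per kb) were next, and Ncoa4, Slc11a2, Aco1 and Ireb2 lay between 34.7 and 18.6 CPM per kb. Fbxl5 had 6.37 and Slc40a1 1.25 CPM per kb, rank 9626, so the exporter was the lowest of the 10.

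**Figure D1:**
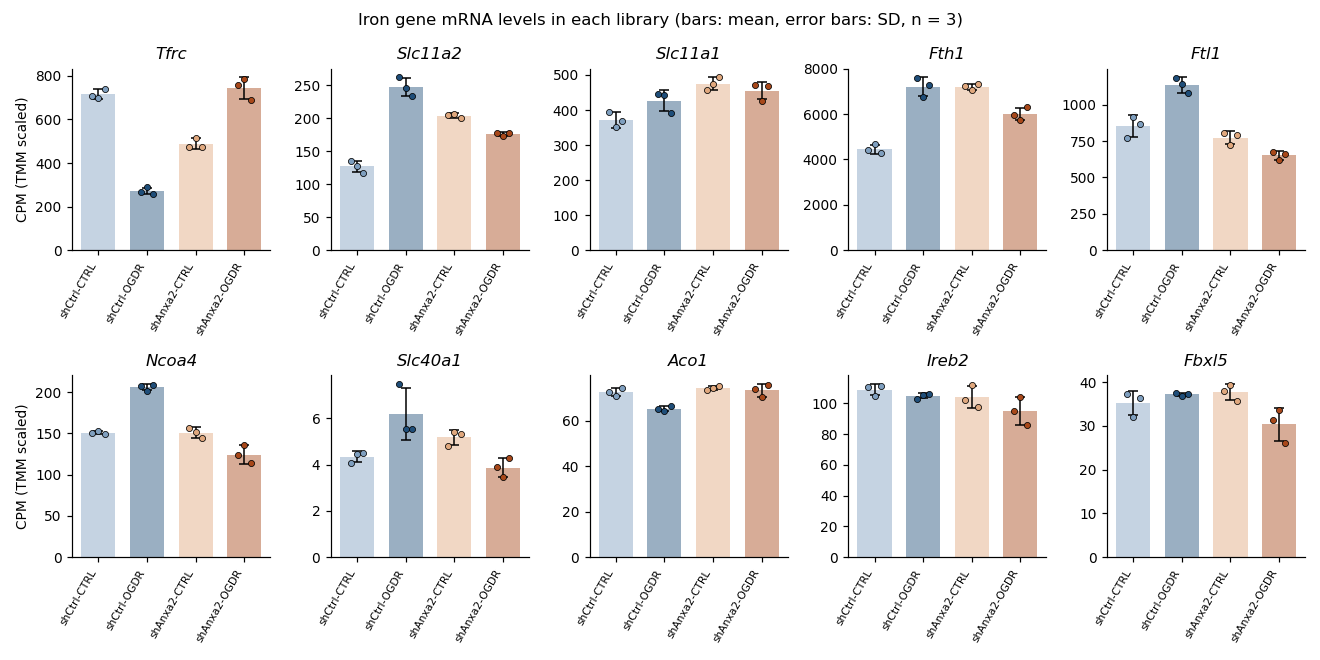
TMM-scaled CPM (y axis, from 0) of each of the 10 iron genes in the 4 groups (x axis), with bars for group means, error bars for the SD and points for the 3 libraries. Tfrc falls from a mean of 716 to 272 CPM with OGD/R in shCtrl cells and rises from 489 to 745 CPM in shAnxa2 cells, whereas Slc11a2, Fth1, Ftl1, Ncoa4 and Slc40a1 go the other way in both lines.

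Of the 10 genes, the one with the largest change was Tfrc (ENSMUSG00000022797, chr16:32427738-32451612, plus strand), the transferrin receptor. Its level was 709, 699 and 741 CPM in the shCtrl-CTRL libraries and 267, 289 and 259 CPM after OGD/R. In shAnxa2 cells it was 476, 517 and 473 CPM untreated and 760, 784 and 690 CPM after OGD/R. The receptor mRNA was thus lower in every treated shCtrl library than in any untreated one. In shAnxa2 cells it was higher in every treated library than in any untreated one. In shCtrl cells it fell by 1.40 on the log2 scale (SE 0.0555, edgeR adjusted p = 5.07e-16), to 0.380 of the untreated level, a change larger in size than that of 97.0% of all genes tested. In shAnxa2 cells it rose 1.52-fold (log2 0.61, SE 0.0545, adjusted p = 2.10e-09). The change in shAnxa2 cells minus that in shCtrl cells, the interaction, was 2.01 on the log2 scale (SE 0.0777, adjusted p = 1.08e-16). Between lines, the untreated shAnxa2 cells had 0.682 of the shCtrl level (adjusted p = 6.31e-09), whereas after OGD/R they had 2.74 times as much (adjusted p = 1.51e-16). In order of level, shAnxa2-OGDR and shCtrl-CTRL overlapped, and shAnxa2-CTRL and shCtrl-OGDR were each separate below them.

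Slc11a2 (ENSMUSG00000023030, chr15:100285779-100322953, minus strand) encodes DMT1, which moves ferrous iron out of the endosome and across the plasma membrane. It went the opposite way from Tfrc in each line. The shCtrl libraries had 135, 129 and 118 CPM untreated and 262, 246 and 234 CPM after OGD/R. The shAnxa2 libraries had 205, 207 and 200 CPM untreated and 178, 173 and 178 CPM after OGD/R. All 4 groups were separate, with shCtrl-OGDR the highest and shCtrl-CTRL the lowest. OGD/R raised it 1.95-fold in shCtrl cells (log2 0.96, SE 0.0529, adjusted p = 1.49e-13) and lowered it to 0.862 in shAnxa2 cells (log2 -0.21, SE 0.0527, adjusted p = 0.00131), with an interaction of -1.18 (SE 0.0746, adjusted p = 8.88e-13). The shAnxa2 level was 1.61 times that of shCtrl cells without treatment (adjusted p = 9.89e-11) and 0.711 of it after OGD/R (adjusted p = 1.11e-08). In the annotation, 6.33% of its exon bases are shared with another gene, Gm5475.

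Slc11a1 (ENSMUSG00000026177, chr1:74414354-74425221, plus strand), or NRAMP1, is the related transporter of the phagosome membrane in macrophages, and it moved less. It had 396, 350 and 368 CPM in shCtrl-CTRL, 445, 443 and 392 CPM in shCtrl-OGDR, 458, 474 and 494 CPM in shAnxa2-CTRL and 470, 426 and 468 CPM in shAnxa2-OGDR. Each neighbouring pair of groups in the order of means overlapped, while the untreated lines were separate from each other. The rise in shCtrl cells was 1.15-fold (log2 0.20, SE 0.0571, adjusted p = 0.00377), the untreated shAnxa2 level was 1.28 times that of shCtrl (adjusted p = 9.82e-06), and the interaction was -0.26 (SE 0.0808, adjusted p = 0.00561). Neither its OGD/R difference in shAnxa2 cells (log2 -0.06, adjusted p = 0.36) nor the line difference after OGD/R (log2 0.09, adjusted p = 0.158) passed the test.

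Fth1 (ENSMUSG00000024661, chr19:9957962-9962462, plus strand) encodes the ferritin heavy chain, the subunit that oxidizes iron for storage. Its level was 4413, 4672 and 4272 CPM in shCtrl-CTRL and 7582, 6766 and 7280 CPM in shCtrl-OGDR. It was 7239, 7065 and 7303 CPM in shAnxa2-CTRL and 5959, 5752 and 6301 CPM in shAnxa2-OGDR. Untreated shAnxa2 cells thus stood at the level that shCtrl cells had after OGD/R, and these 2 groups overlapped while the others were separate. OGD/R raised Fth1 1.62-fold in shCtrl cells (log2 0.70, SE 0.0429, adjusted p = 1.08e-12) and lowered it to 0.834 in shAnxa2 cells (log2 -0.26, SE 0.0427, adjusted p = 1.42e-05). The interaction was -0.96 (SE 0.0605, adjusted p = 8.29e-13). Between lines, the knockdown cells had 1.62 times the shCtrl level without treatment (adjusted p = 1.66e-12) and 0.833 of it after OGD/R (adjusted p = 7.22e-06).

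Ftl1 (ENSMUSG00000050708, chr7:45107368-45109308, minus strand), the light chain that helps to mineralize iron inside the shell, followed the heavy chain in its response to OGD/R but not between untreated lines. The shCtrl libraries had 771, 918 and 868 CPM untreated and 1186, 1139 and 1079 CPM after OGD/R. The shAnxa2 libraries had 805, 723 and 795 CPM untreated and 678, 620 and 659 CPM after OGD/R. OGD/R separated the groups upward in shCtrl cells and downward in shAnxa2 cells, and the untreated lines overlapped. The changes were 1.33-fold in shCtrl cells (log2 0.41, SE 0.0578, adjusted p = 1.12e-06) and 0.842-fold in shAnxa2 cells (log2 -0.25, SE 0.0579, adjusted p = 8.39e-04), with an interaction of -0.66 (SE 0.0818, adjusted p = 1.20e-07). After OGD/R the knockdown cells had 0.575 of the shCtrl level (adjusted p = 1.31e-11). The untreated difference of -0.14 on the log2 scale passed the threshold narrowly (adjusted p = 0.0425) and no longer did so in 9 alternative fits, among them those without 2 of 3 shCtrl-CTRL libraries (replicate 2, -0.08; replicate 3, -0.12). Ftl1 values are uncertain, since 90.6% of the 50-base windows of its mRNA also occur in 17 other annotated genes, among them Ftl1-ps1, which had 101 to 243 counts against 13277 to 30318 for Ftl1.

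Ncoa4 (ENSMUSG00000056234, chr14:31881822-31901812, plus strand) encodes the receptor that carries ferritin to lysosomes, where its iron is released. It had 150, 153 and 149 CPM in shCtrl-CTRL and 208, 202 and 209 CPM in shCtrl-OGDR. The shAnxa2 libraries had 157, 152 and 144 CPM untreated and 123, 136 and 114 CPM after OGD/R. The untreated lines overlapped (log2 0.00, SE 0.0536, adjusted p = 0.96), and after OGD/R they were separate. The rise in shCtrl cells was 1.37-fold (log2 0.45, SE 0.0532, adjusted p = 7.53e-08) and the fall in shAnxa2 cells was to 0.825 (log2 -0.28, SE 0.0542, adjusted p = 1.32e-04). The knockdown cells ended at 0.604 of the shCtrl level (adjusted p = 1.89e-11), and the interaction was -0.73 (SE 0.076, adjusted p = 6.65e-09). Of its 50-base windows, 43.1% also occur in the gene Gm6768, so part of its counts could not be placed with certainty.

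Slc40a1 (ENSMUSG00000025993, chr1:45947228-45965683, minus strand) encodes ferroportin, the known exporter of iron from cells, and was measured from only 76 to 191 counts per library. Its level was 4.05, 4.47 and 4.49 CPM in shCtrl-CTRL and 7.47, 5.54 and 5.53 CPM in shCtrl-OGDR. In shAnxa2 cells it was 4.79, 5.39 and 5.32 CPM untreated and 3.88, 3.46 and 4.27 CPM after OGD/R. The OGD/R groups were separate from the untreated ones in each line, and shCtrl-CTRL and shAnxa2-OGDR overlapped at the bottom of the order. It rose 1.43-fold in shCtrl cells (log2 0.51, SE 0.143, adjusted p = 0.00310) and fell to 0.744 in shAnxa2 cells (log2 -0.43, SE 0.155, adjusted p = 0.0228), with an interaction of -0.94 (SE 0.211, adjusted p = 3.54e-04). The fall in shAnxa2 cells did not pass without 1 of 3 libraries, namely shAnxa2-CTRL replicate 2 (-0.40, adjusted p = 0.0623) or replicate 3 (-0.40, adjusted p = 0.0605) or shAnxa2-OGDR replicate 2 (-0.35, adjusted p = 0.1004). After OGD/R the knockdown cells had 0.621 of the shCtrl level (adjusted p = 2.79e-04), and without treatment the log2 difference of 0.25 did not pass (adjusted p = 0.146).

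Among the genes that sense iron, the log2 differences of Aco1 and Ireb2 stayed within 0.17 of 0 in each comparison, and those of Fbxl5 reached further. Aco1 (ENSMUSG00000028405, chr4:40143081-40198338, plus strand) and Ireb2 (ENSMUSG00000032293, chr9:54771073-54819814, plus strand) encode the iron regulatory proteins IRP1 and IRP2, which bind the hairpins printed above, and Fbxl5 (ENSMUSG00000039753, chr5:43901957-43978980, minus strand) encodes the iron-binding ubiquitin ligase subunit that leads to the breakdown of IRP2. Aco1 had 71.1 to 74.3 CPM in shCtrl-CTRL, 64.5 to 66.5 in shCtrl-OGDR, 73.4 to 75.2 in shAnxa2-CTRL and 70.3 to 75.6 in shAnxa2-OGDR, so the treated shCtrl libraries alone were separate. The difference there was -0.15 on the log2 scale (SE 0.049, adjusted p = 0.00923), and it missed the threshold without shCtrl-CTRL replicate 3 (-0.13, adjusted p = 0.0561). After OGD/R, Aco1 was 1.12 times as high in shAnxa2 as in shCtrl cells (adjusted p = 0.00492), and its interaction did not pass (log2 0.13, SE 0.0696, adjusted p = 0.0945). Ireb2 ranged from 85.8 to 112 CPM over all 12 libraries, and every neighbouring pair of groups overlapped. Its one difference past the test was between lines after OGD/R (log2 -0.14, SE 0.0601, adjusted p = 0.0383), which was lost when any of 4 libraries was left out: shCtrl-OGDR replicate 2 (-0.14) or replicate 3 (-0.14), or shAnxa2-OGDR replicate 1 (-0.14) or replicate 3 (-0.08). Its OGD/R difference in shAnxa2 cells was -0.13 (adjusted p = 0.0758). Fbxl5 had 32.0 to 37.2, 36.7 to 37.6, 35.7 to 39.4 and 26.2 to 33.5 CPM in shCtrl-CTRL, shCtrl-OGDR, shAnxa2-CTRL and shAnxa2-OGDR. It fell with OGD/R in shAnxa2 cells only (log2 -0.31, SE 0.08, adjusted p = 0.00222; 0.08 in shCtrl cells, adjusted p = 0.386), and here the difference between lines was itself past the test (interaction -0.39, SE 0.112, adjusted p = 0.00359).

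**Figure D2:**
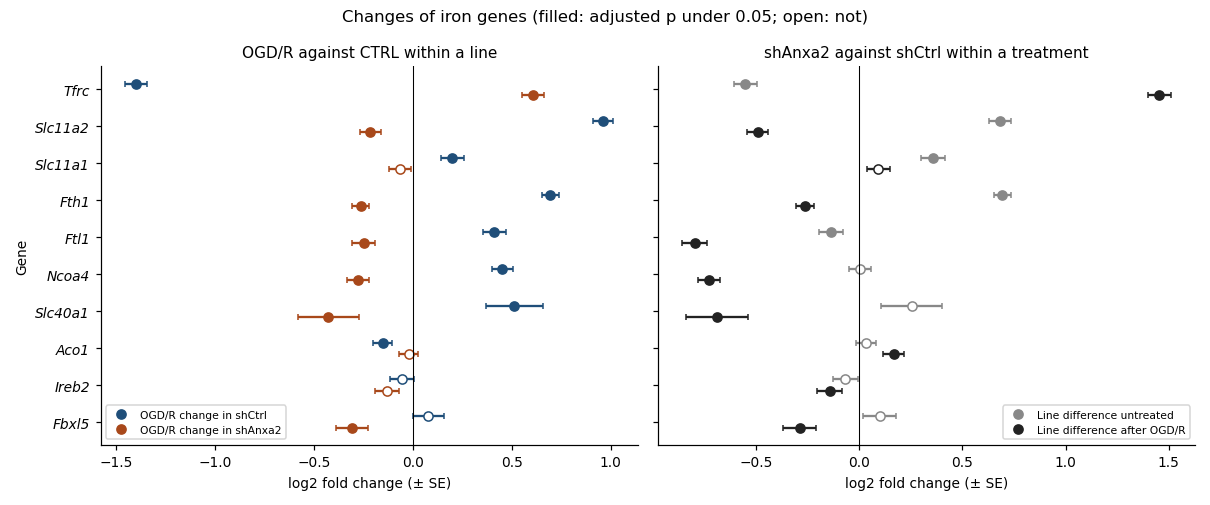
Log2 fold changes with standard errors (x axes) of the 10 iron genes (y axis), for OGD/R against CTRL in each line on the left and for shAnxa2 against shCtrl cells under each treatment on the right, where filled points passed an adjusted p of 0.05. Tfrc runs from -1.40 in shCtrl to 0.61 in shAnxa2 cells on the left, and the points for Aco1, Ireb2 and Fbxl5 stay within 0.31 of 0.

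Counted together, OGD/R raised 6 of the 10 genes in shCtrl cells (Slc11a2, Slc11a1, Fth1, Ftl1, Ncoa4 and Slc40a1) and lowered 2 (Tfrc and Aco1), where 63.4% of all genes tested passed the test (32.4% higher and 31% lower). In shAnxa2 cells it raised Tfrc alone and lowered 6 (Slc11a2, Fth1, Ftl1, Ncoa4, Slc40a1 and Fbxl5), where 55% of all genes passed (28.2% higher and 26.8% lower). The median log2 change of the 10 genes was 0.31 in shCtrl and -0.23 in shAnxa2 cells, beside 0.005 and 0.004 over all genes. In 6 of 10 genes, both changes passed in opposite directions, where 44.4% of all genes did so. They were Tfrc, Slc11a2, Fth1, Ftl1, Ncoa4 and Slc40a1. The CPM of treated and untreated libraries did not overlap for 7 of the 10 genes in each line, where 68% of all genes did not overlap in shCtrl and 58.9% in shAnxa2 cells. At the limits in the study's methods, an unadjusted p under 0.05 with a fold above 1.2 or below 0.8, 5 of the 10 genes were higher and 1 lower in shCtrl cells (45.7% of all genes were called), and 1 was higher and 1 lower in shAnxa2 cells (37.1%). The study's figure legend for these cells gives a higher fold limit, at which genes were not counted here. When a log2 fold change of at least 1 was required with the adjusted p, only Tfrc remained in shCtrl cells, where 6.73% of all genes were called, and none of the 10 in shAnxa2 cells, where 3.54% were. With so many genes changed in every comparison, a call by itself sets these genes little apart from the rest.

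The series' design text names the comparison of both lines after OGD/R among its 4 groups. There, 2 of the 10 genes were higher in shAnxa2 cells (Tfrc and Aco1) and 7 were lower, all but Slc11a1, where 67.9% of all genes passed the test (33.8% higher and 34.2% lower). Their median log2 difference was -0.28, beside -0.003 over all genes. Without shAnxa2-OGDR replicate 1, the library with the Lars2 counts, 6 were lower and the Tfrc difference was 1.44. In untreated cells, 3 were higher in the knockdown line (Slc11a2, Slc11a1 and Fth1) and 2 lower (Tfrc and Ftl1), where 59.2% of all genes passed (29.5% higher and 29.7% lower). The CPM of both lines did not overlap for 5 of the 10 genes untreated and 8 after OGD/R, where 63.6% and 69.9% of all genes did not overlap. The interaction passed for 8 of 10 genes, 1 higher and 7 lower, where 70% of all genes passed (34.9% higher and 35.1% lower). With a log2 size of at least 1 also required, Tfrc was called between lines after OGD/R (10.1% of all genes), none of the 10 between untreated lines (5.68%), and Tfrc and Slc11a2 for the interaction (21.5%). The median interaction of the 10 genes was -0.52, beside -0.006 over all genes, and their median size was 0.70, beside 0.52.

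Ratios of counts within a library do not depend on the scaling between libraries. The ratio of Tfrc to Fth1 sets uptake of transferrin iron beside storage. The shCtrl-CTRL libraries held 5.77 to 6.69 Fth1 counts for each Tfrc count, and the shCtrl-OGDR libraries 23.4 to 28.4. The shAnxa2-CTRL libraries held 13.7 to 15.4, and the shAnxa2-OGDR libraries 7.34 to 9.14. All 4 groups were separate, and the treated knockdown libraries lay nearest to untreated control cells. On the log2 scale, Tfrc to Fth1 changed by -2.09 (SE 0.11) with OGD/R in shCtrl cells and by 0.87 (SE 0.109) in shAnxa2 cells. Between lines it differed by -1.25 (SE 0.083) untreated and 1.72 (SE 0.13) after OGD/R. The ratio of Slc40a1 to Tfrc, export beside uptake, changed by 1.90 (SE 0.168) in shCtrl cells and by -1.03 (SE 0.149) in shAnxa2 cells.

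The ratio of heavy to light ferritin chain, Fth1 to Ftl1, sorted mainly by line. It was 4.92 to 5.73 counts in shCtrl-CTRL, 5.94 to 6.75 in shCtrl-OGDR, 8.99 to 9.77 in shAnxa2-CTRL and 8.80 to 9.57 in shAnxa2-OGDR. The lines differed by 0.83 (SE 0.0755) untreated and 0.54 (SE 0.0641) after OGD/R on the log2 scale, while OGD/R moved the ratio by 0.28 (SE 0.0851) in shCtrl cells and by -0.02 (SE 0.0506) in shAnxa2 cells, where the groups overlapped (exact permutation p = 0.8). The caution on Ftl1 counts holds for this ratio as well. Slc11a1 to Slc11a2 fell by 0.76 (SE 0.0662) with OGD/R in shCtrl cells, whereas the shAnxa2 groups overlapped (0.15, SE 0.0549, exact permutation p = 0.2). The other 14 of the 16 ratio comparisons were separate, each with an exact two-sided permutation p of 0.1, the smallest that 3 against 3 libraries allow (0.114 after Benjamini-Hochberg adjustment over 16 tests).

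**Figure D3:**
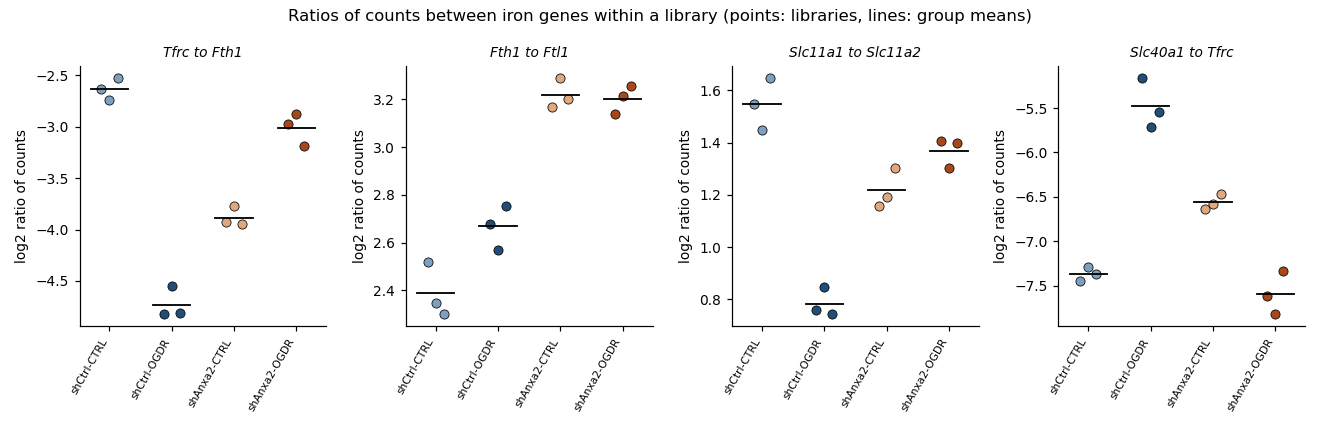
Log2 ratios of counts between pairs of iron genes within each library (y axes, points) by group (x axes), with lines for the group means. Tfrc to Fth1 averages -2.64, -4.73, -3.88 and -3.01 from left to right, and Fth1 to Ftl1 sits at 3.22 and 3.20 in both shAnxa2 groups, above 2.39 and 2.67 in the shCtrl groups.

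Beyond these 10 genes, 75 further genes of iron biology had been listed, of which 57 were tested. OGD/R raised 23 and lowered 15 of them in shCtrl cells (66.7%, beside 63.4% of all genes) and raised 17 and lowered 16 in shAnxa2 cells (57.9%, beside 55%). After OGD/R, 22 were higher and 18 lower in shAnxa2 than in shCtrl cells (70.2%, beside 67.9%). These shares are close to those of all genes. The counts by list below stand beside the same background. Of all genes, 32.4% rose and 31% fell with OGD/R in shCtrl cells, and 28.2% rose and 26.8% fell in shAnxa2 cells.

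Around the transferrin receptor, 5 of 9 listed genes of the transferrin cycle and of ferrireductases were tested, of which 1 rose and 2 fell with OGD/R in shCtrl cells, and 2 rose and 1 fell in shAnxa2 cells. Steap3, the endosomal reductase that turns transferrin iron into its ferrous form, averaged 140 CPM in shCtrl-CTRL, 89.3 in shCtrl-OGDR, 114 in shAnxa2-CTRL and 165 in shAnxa2-OGDR. It fell by 0.65 in shCtrl cells (adjusted p = 7.13e-11) and rose by 0.54 in shAnxa2 cells (adjusted p = 3.96e-09) on the log2 scale, the directions of Tfrc. Snx3, a sorting nexin that returns the receptor to the surface, fell by 0.40 (adjusted p = 9.51e-07) and rose by 0.24 (adjusted p = 7.96e-04). Hfe, a partner of the receptor, went the other way, with 0.28 in shCtrl (adjusted p = 0.00831) and -0.34 in shAnxa2 cells (adjusted p = 0.00253). Trf, transferrin itself, did not pass with OGD/R in either line (-0.08 and -0.10, adjusted p = 0.133 and 0.0856). It averaged 203 and 191 CPM in the shCtrl groups and 403 and 376 CPM in the shAnxa2 groups.

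Among other membrane iron transport genes, 5 of 10 were tested. OGD/R raised 2 and lowered 1 in shCtrl cells, and raised 1 and lowered 3 in shAnxa2 cells. Slc39a14 (ZIP14), a carrier of iron not bound to transferrin, fell by 0.95 in shCtrl cells (SE 0.0656, adjusted p = 8.55e-12) and rose by 0.63 in shAnxa2 cells (SE 0.0634, adjusted p = 1.34e-08), as Tfrc did. Cp encodes ceruloplasmin, the ferroxidase that works with ferroportin, and averaged 2.84, 18.4, 16.2 and 4.39 CPM in shCtrl-CTRL, shCtrl-OGDR, shAnxa2-CTRL and shAnxa2-OGDR. Its interaction of -4.56 (SE 0.205, adjusted p = 1.58e-15) had the sign of that of Slc40a1. Lcn2, which binds the iron-carrying siderophores of bacteria, averaged 1.42, 10.8, 16.6 and 4.25 CPM, with an interaction of -4.88 (SE 0.258, adjusted p = 3.13e-14), from 26 to 402 counts per library. Scara5, a ferritin receptor, accounts for the third fall in shAnxa2 cells with only 3 to 20 counts per library.

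**Figure D4:**
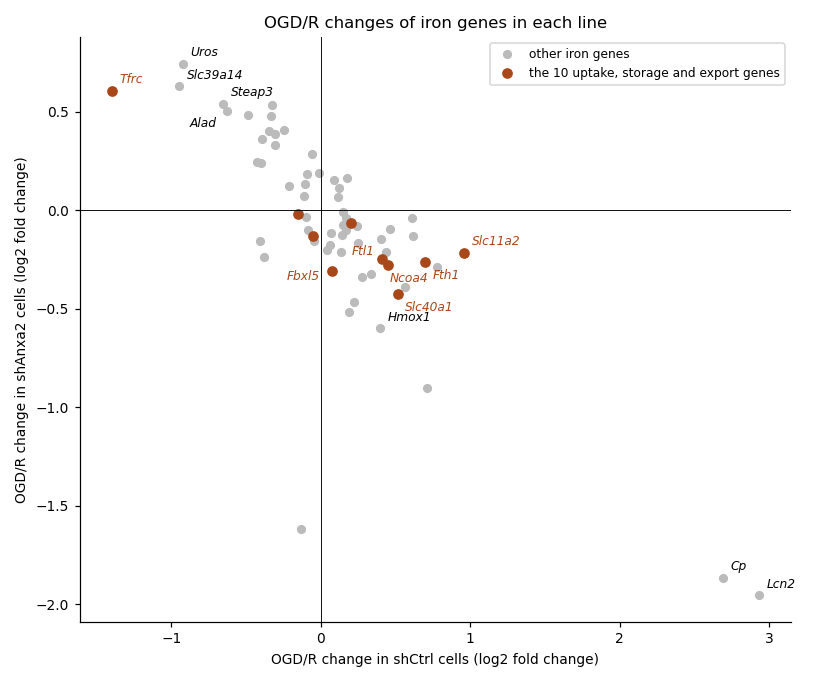
Log2 fold change with OGD/R in shCtrl cells (x axis) against that in shAnxa2 cells (y axis) for the 10 iron genes (brown) and the 57 other iron genes tested (grey), 1 point for each gene. Tfrc, Slc39a14 and Steap3 lie at the upper left, and Fth1, Slc11a2, Slc40a1, Hmox1, Cp and Lcn2 at the lower right, with Cp and Lcn2 past 2.5 in shCtrl cells.

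Around ferritin, 4 of 5 listed iron chaperones and turnover genes were tested, of which 2 rose and 1 fell with OGD/R in shCtrl cells and 1 rose and 1 fell in shAnxa2 cells. Pcbp1, a chaperone that hands iron to ferritin, fell by 0.33 in shCtrl cells (adjusted p = 5.59e-05) and rose by 0.48 in shAnxa2 cells (adjusted p = 6.57e-07), opposite to Fth1 in both. Its relative Pcbp2 rose by 0.15 in shCtrl cells (adjusted p = 0.0339) and had -0.07 in shAnxa2 cells (adjusted p = 0.327). Tax1bp1, an autophagy receptor that acts with Ncoa4, rose by 0.19 in shCtrl cells (adjusted p = 0.00835) and fell by 0.51 in shAnxa2 cells (adjusted p = 1.95e-07), the directions of Ncoa4.

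Heme is another form in which macrophages take up iron. Of 9 heme handling genes tested (11 listed), 5 rose and 2 fell with OGD/R in shCtrl cells, and 2 rose and 3 fell in shAnxa2 cells. Of all genes, 63.4% passed in shCtrl and 55% in shAnxa2 cells. Hmox1, heme oxygenase 1, which frees iron from heme, averaged 305 and 401 CPM in shCtrl and 425 and 281 CPM in shAnxa2 cells, untreated and after OGD/R. Its changes were 0.40 (SE 0.0568, adjusted p = 1.56e-06) and -0.60 (SE 0.0571, adjusted p = 5.53e-09), with an interaction of -0.996 (SE 0.0806, adjusted p = 7.62e-11). Slc48a1, which moves heme out of lysosomes, rose by 0.62 in shCtrl cells (adjusted p = 1.26e-09) and had -0.13 in shAnxa2 cells (adjusted p = 0.0661). Bach1, a heme-sensing repressor of Hmox1 and of the ferritin genes, also rose in shCtrl cells (0.40, adjusted p = 1.07e-06) and fell in shAnxa2 cells (-0.15, adjusted p = 0.0402). Nfe2l2 (NRF2), an activator of the same genes, rose by 0.18 in shCtrl cells (adjusted p = 0.00290) and had -0.07 in shAnxa2 cells (adjusted p = 0.25).

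The genes that use iron showed no single direction with OGD/R. In heme synthesis, 5 of 9 genes rose and 2 fell with OGD/R in shCtrl cells (63.4% of all genes passed). In shAnxa2 cells 2 rose and 3 fell (55% of all genes passed). The 2 that fell in shCtrl cells were Uros (log2 -0.92, adjusted p = 5.64e-08) and Alad (log2 -0.62, adjusted p = 4.28e-05), and the same 2 were those that rose in shAnxa2 cells (0.74 and 0.50, adjusted p = 5.42e-06 and 4.88e-04). Among 18 genes of mitochondrial iron and iron-sulfur assembly, 5 rose and 5 fell in shCtrl cells, and 7 rose and 3 fell in shAnxa2 cells. After OGD/R, 12 of the 18 stood higher in the knockdown line and 2 stood lower, where 33.8% of all genes tested were higher and 34.2% lower, with a median log2 difference of 0.23 beside -0.003 over all genes. Other lists differed in this comparison. Higher and lower were 3 and 0 of 5 transferrin cycle genes, 1 and 2 of 5 other membrane transport genes and 1 and 3 of 4 chaperone and turnover genes. They were 1 and 5 of 9 heme handling genes and 2 and 3 of 9 heme synthesis genes. Hscb rose by 0.78 and Iba57 fell by 0.48 in shCtrl cells (adjusted p = 3.26e-08 and 6.87e-05), both with the opposite sign in shAnxa2 cells (-0.29 and 0.48, adjusted p = 0.00801 and 1.04e-04). Of the 3 tested partners of Fbxl5, Skp1 alone passed in shCtrl cells (log2 -0.41, adjusted p = 5.86e-05), and Rbx1 rose by 0.19 and Cul1 fell by 0.16 in shAnxa2 cells (log2 -0.16, adjusted p = 0.0362 and 0.0161). Among genes listed for an iron-responsive element in their mRNA, Epas1 fell by 0.43 in shCtrl cells (adjusted p = 5.01e-05) and rose by 0.25 in shAnxa2 cells (adjusted p = 0.0150). Alas2 had -0.38 in shCtrl cells (adjusted p = 0.364), from only 6 to 23 counts per library. In the list of hormones and transcription factors only Bach1 and Nfe2l2 were tested, and hepcidin (Hamp) had 0 counts in all libraries.

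The genes whose profile over the 12 libraries was most like that of 1 iron gene were sought among 9359 genes of at least 5 CPM on average, by the root mean square difference of centred log2(CPM + 0.1) values. For Tfrc the nearest genes were Ccdc137 (0.114), Ccne2 (0.116) and Ccdc134 (0.123), beside a median of 0.602 over the candidates. For Fth1 they were Pitpnm1 (0.0504), Brme1 (0.0553) and Sqstm1 (0.0586), beside a median of 0.342. Of the other iron genes, Slc11a2 was nearest to Fth1 (0.127), nearer than Ftl1 (0.363). For Slc40a1 they were Gatb (0.111), Ankrd50 (0.112) and Anapc2 (0.112), beside a median of 0.327, and Ftl1 (0.187) and Ncoa4 (0.188) were the nearest iron genes. These distances are descriptions over the same 12 libraries and carry no test.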

How the data were processed

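RNA selection, strand setting and counting tool for these cells are not given in the sources used here. The submitters' processing notes name HISAT2 2.0.4 and mm39. The authors deposited raw counts of reads per gene for 21834 genes, without normalization, and 12 per-sample columns of the same counts normalized by size factors, which were not used. The study's methods describe 3 biological replicates per group.

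Counts were fitted with edgeR 4.0.16 in R 4.3.3: a filter keeping genes with 0.5 CPM or more in 3 or more libraries, TMM scaling, 1 quasi-likelihood model with a mean for each of 4 groups, and Benjamini-Hochberg adjustment over 11626 genes. A call is an adjusted p under 0.05. The standard error is the absolute log2 fold change over the square root of F. The common biological coefficient of variation was 5.355%. Lengths and IREs came from GENCODE M21 (GRCm38), and gene counts keep the build of the table. Libraries of 1 group differed by 4.00 to 13.28 chi-square units per gene, so none repeated another. Same-numbered libraries of different groups deviated together little, with correlations of -0.051 to 0.135 over 18 pairs, of which 1 was over 0.1. Pairs with other numbers had -0.099 to 0.082 over 36 pairs. Replicate numbers were therefore not used as pairs in the main fit. The steps were tested on simulated counts. The alternatives were RLE, upper quartile or no composition scaling, no filter or 1 CPM, DESeq2 1.42.0, limma 3.58.1 voom, fits of only the groups compared, a replicate block, other call limits and leaving out each library.

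The 10 genes, the lists and the tests were chosen with earlier results of these data known. All 10 are named. From each list, the genes named are at most 2 with the largest interaction among those past the test, plus Hmox1, Slc39a14, Steap3, Pcbp1, Pcbp2, Bach1 and Nfe2l2. Hfe, Trf, Scara5, Rbx1, Cul1, Alas2 and Hamp were named after their values were seen. One listed gene is not reported here.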

Additional observations from a re-analysis of the deposited data

Results flagged for a closer look

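For 8 of the 10 iron genes, the OGD/R change differed between the lines by the interaction test of edgeR, where 70% of all genes tested did. The interaction, as the log2 change in shAnxa2 cells minus that in shCtrl cells, was 2.01 for Tfrc (adjusted p = 1.08e-16), -1.18 for Slc11a2 (adjusted p = 8.88e-13) and -0.26 for Slc11a1 (adjusted p = 0.00561) among the uptake genes. It was -0.96 for Fth1 (adjusted p = 8.29e-13) and -0.66 for Ftl1 (adjusted p = 1.20e-07), the storage genes, and -0.73 for Ncoa4 (adjusted p = 6.65e-09), which serves release from storage. It was -0.94 for the exporter Slc40a1 (adjusted p = 3.54e-04) and -0.39 for the sensor Fbxl5 (adjusted p = 0.00359). Tfrc was the 1 gene of these with a positive value. Each of the 8 kept its sign and passed the test in every fit in which a library was left out. The treatments are those of the sample titles, which the Anxa2 knockdown does not check. What the difference between the lines comes from, the labelling of treatments included, was not tested.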

How the results depend on the processing

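Of 1040 values of the 10 genes under the alternative fits, 1014 kept direction and side of the threshold, 17 lost the call, 5 gained it and 4 changed sign. Other scalings moved no value by more than 0.073 on the log2 scale. The 4 changes of sign were in differences that had not passed: Aco1 with OGD/R in shAnxa2 cells (-0.048 to 0.005 over the libraries left out, 0.005 without shAnxa2-OGDR replicate 2), Ncoa4 between untreated lines (-0.023 to 0.038 over the libraries left out, -0.003 without shCtrl-CTRL replicate 1, -0.023 and -0.002 without shAnxa2-CTRL replicate 1 and 2). Apart from these values, the Fth1 to Ftl1 ratio with OGD/R in shAnxa2 cells changed sign in 2 fits (-0.044 to 0.019 over the libraries left out, 0.017 and 0.019 without shAnxa2-OGDR replicate 1 and shAnxa2-CTRL replicate 2). Ireb2 with OGD/R in shAnxa2 cells passed in 5 alternatives (-0.208 to -0.155). The cause was not tested.

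Requiring also a log2 fold change of at least 1 left, by construction, 541 genes higher and 242 lower for OGD/R in the shCtrl line, 94 and 318 in the shAnxa2 line, 447 and 213 between untreated lines, 425 and 747 after OGD/R, and 1026 and 1471 for the interaction. Of the 10 iron genes it left 0 higher and 1 lower, 0 and 0, 0 and 0, 1 and 0, and 1 and 1. At an unadjusted p with a fold above 1.2 or below 0.8, 3002 genes were higher and 2314 lower for OGD/R in the shCtrl line. The counts were 2277 and 2033 in the shAnxa2 line, and 2711 and 1987 between untreated lines. In these 3 comparisons, 5, 1 and 3 iron genes were higher and 1 was lower in each. Between lines after OGD/R, 3133 genes were higher and 2884 lower, with 1 iron gene higher and 4 lower. For the interaction, 3805 and 3607 genes were called, with 1 iron gene higher and 6 lower. Between untreated lines, 1 iron gene in place of 2 was lower with upper quartile scaling, DESeq2 or only the groups compared. Leaving out 1 library gave 1 to 2 iron genes lower there and for OGD/R in shCtrl cells (1 without shCtrl-CTRL replicate 3).

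With the replicate block, OGD/R raised 6 iron genes and lowered 2 in the shCtrl line, and raised 1 and lowered 6 in the shAnxa2 line, as without it, and all genes higher and lower numbered 3754 and 3601 in place of 3764 and 3608. The block changed no other call of the 10 genes. Depth limits Slc40a1 most, with 76 to 191 counts in a library.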
